A study of Homo sapiens with 11 samples.

Results

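The genes described here are 8 members of 5 small families of leucine-rich repeat surface proteins: FLRT2 and FLRT3, AMIGO1 and AMIGO2, SLITRK6, LRIG1 and LRIG3, and TPBG. They were chosen by gene symbol, with earlier results of these arrays known, and every probe set annotated to exactly 1 of the symbols was kept. This gave 17 probe sets of the 54613 tested, and 8 of the 19775 genes that these probe sets name. FLRT3, AMIGO2 and SLITRK6 entered the set because they were low, and TPBG because it was high, on arrays of cells given E2-BSA or estradiol. Their differences in E2-BSA minus control, E2-BSA minus BSA, estradiol minus control and the mean over E2-BSA backgrounds therefore carry no p-value for the members. Calls in these comparisons are counted only to place the members among all probe sets, and are no evidence for them. Each E2-BSA pair with an antagonist is part of that mean and is treated in the same way.

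Leucine-rich repeats are short repeated stretches that fold into a curved surface on which another protein can bind. In these families the repeats lie outside the cell, above a single membrane-spanning segment, and act in adhesion between cells and in the control of growth factor receptors. FLRT3 binds Unc5 receptors and latrophilins, AMIGO proteins bind one another between neighbouring cells, SLITRK6 is best known in the inner ear and in neurons, LRIG1 restrains ERBB and other receptor tyrosine kinases, and TPBG, the oncofetal antigen 5T4, inhibits Wnt signalling.

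RNA came from T47D, an estrogen receptor-positive human breast cancer line, treated for 3 h after a 4 h preincubation in serum (10%) stripped of most steroid with charcoal. The groups with 2 arrays were untreated cells, called control, and cells given 1 µM E2-BSA. E2-BSA is the steroid linked to albumin, a form of the hormone meant to act from outside the cell. The other 7 groups had 1 array each: estradiol at 1 µM, ethanol at 0.1%, BSA at 1 µM, ICI at 10 µM, G15 at 10 µM, and E2-BSA at 1 µM with either antagonist at 10 µM. ICI is an antagonist given by abbreviation only, and G15 is known as an antagonist of the G protein-coupled estrogen receptor GPER1. The comparisons ask what the coupled hormone changes within hours, whether free estradiol does the same, and what either antagonist alters.

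Values were on a scale read as log2, with each probe set centred near 0 by the authors, so the level of one gene cannot be set against that of another, and neither the expression of a member nor of breast markers can be checked. The 11 arrays fell into 2 array sets along the first principal component, which held 71.0% of the variance. The smaller set holds control 1, E2-BSA 1 and estradiol, and the larger set the remaining 8 arrays. The ACTB 5′ minus 3′ probe set difference, a sign of RNA or labelling quality, was 0.65 to 0.79 in the smaller set and -0.37 to 0.00 in the larger. Its part in any result was not tested. The labels name no such batch, so differences below are taken within a set or from a limma fit that holds the array set as a block. Precision is limited by the number of arrays, and a group with 1 array is assumed to vary like the replicated groups. The labels do not say whether replicate arrays came from separate cultures, so p-values measure only the spread between arrays, which may be technical.

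The promoters of the 4 genes with the largest differences are shown because these genes differed most on the arrays with hormone, TPBG in the direction opposite to the others, and because the estrogen receptor can bind DNA directly or through factors such as AP-1 and SP1. Each window runs from 250 bases before to 50 bases after an annotated start, from RefSeq on GRCh38.p14, read 5′ to 3′ along the gene. Capitals mark matches on either strand to the estrogen response half-site GGTCA, the AP-1 site TGANTCA or the SP1 box GGGCGG. The windows are chr20:14337563-14337862 (minus strand) for FLRT3, chr12:47079902-47080201 (minus) for AMIGO2, chr13:85799370-85799669 (minus) for SLITRK6 and chr6:82362733-82363032 (plus) for TPBG.
FLRT3: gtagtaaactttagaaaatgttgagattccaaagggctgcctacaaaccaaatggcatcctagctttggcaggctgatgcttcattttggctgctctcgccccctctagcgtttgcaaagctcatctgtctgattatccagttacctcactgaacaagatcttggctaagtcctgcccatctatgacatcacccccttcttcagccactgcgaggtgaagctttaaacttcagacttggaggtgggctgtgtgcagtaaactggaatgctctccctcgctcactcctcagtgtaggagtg
AMIGO2: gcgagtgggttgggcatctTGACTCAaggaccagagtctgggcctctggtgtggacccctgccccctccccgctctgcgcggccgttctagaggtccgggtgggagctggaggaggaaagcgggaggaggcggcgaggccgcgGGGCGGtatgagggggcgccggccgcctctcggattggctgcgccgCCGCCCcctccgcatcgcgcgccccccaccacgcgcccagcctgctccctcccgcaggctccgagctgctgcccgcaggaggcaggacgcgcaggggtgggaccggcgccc
SLITRK6: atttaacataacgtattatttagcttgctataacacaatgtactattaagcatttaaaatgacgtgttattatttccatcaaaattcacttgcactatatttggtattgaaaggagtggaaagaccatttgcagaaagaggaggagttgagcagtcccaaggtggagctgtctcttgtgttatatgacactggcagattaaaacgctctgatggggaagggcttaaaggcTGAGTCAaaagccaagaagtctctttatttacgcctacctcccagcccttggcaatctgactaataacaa
TPBG: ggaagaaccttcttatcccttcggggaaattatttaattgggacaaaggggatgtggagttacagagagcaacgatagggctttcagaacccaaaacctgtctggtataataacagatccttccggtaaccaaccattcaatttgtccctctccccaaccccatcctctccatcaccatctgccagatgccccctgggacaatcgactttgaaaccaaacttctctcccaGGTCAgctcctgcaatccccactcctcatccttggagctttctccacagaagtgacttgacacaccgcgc

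The FLRT3 window held none of these motifs. The AMIGO2 window held the AP-1 match TGACTCA 231 bases before the start and SP1 matches 107 and 61 bases before it. SLITRK6 had the AP-1 match TGAGTCA 20 bases before its start, and the TPBG window shown, the first of 3 for that gene, had the half-site GGTCA at the same distance. The other TPBG windows held no half-site, but SP1 matches 62 bases before the start in the second and 16 and 10 bases before it in the third. All 8 genes matched the promoter table, with 17 windows, some of which overlap. The full estrogen response element, an inverted repeat of the half-site with a short gap and so overlapping it, was in 0 of the 17 windows and in 0.0570% of all 35116 windows. The half-site was in 4 of 17 (37.4% of all windows), AP-1 in 4 (7.71%), and SP1 in 10 (45.0%), where the AP-1 windows are both windows of AMIGO2, the SLITRK6 window and 1 of 4 for LRIG1. The cAMP response element TGACGTCA and the TATA box TATAAA were in 0 of the 17 windows (1.85% and 11.5% of all), and the forkhead motif TGTTTAC was in 1, of FLRT2 (3.42%). A match is only a run of letters in these windows, and factor binding was not measured.

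**Figure D1:**
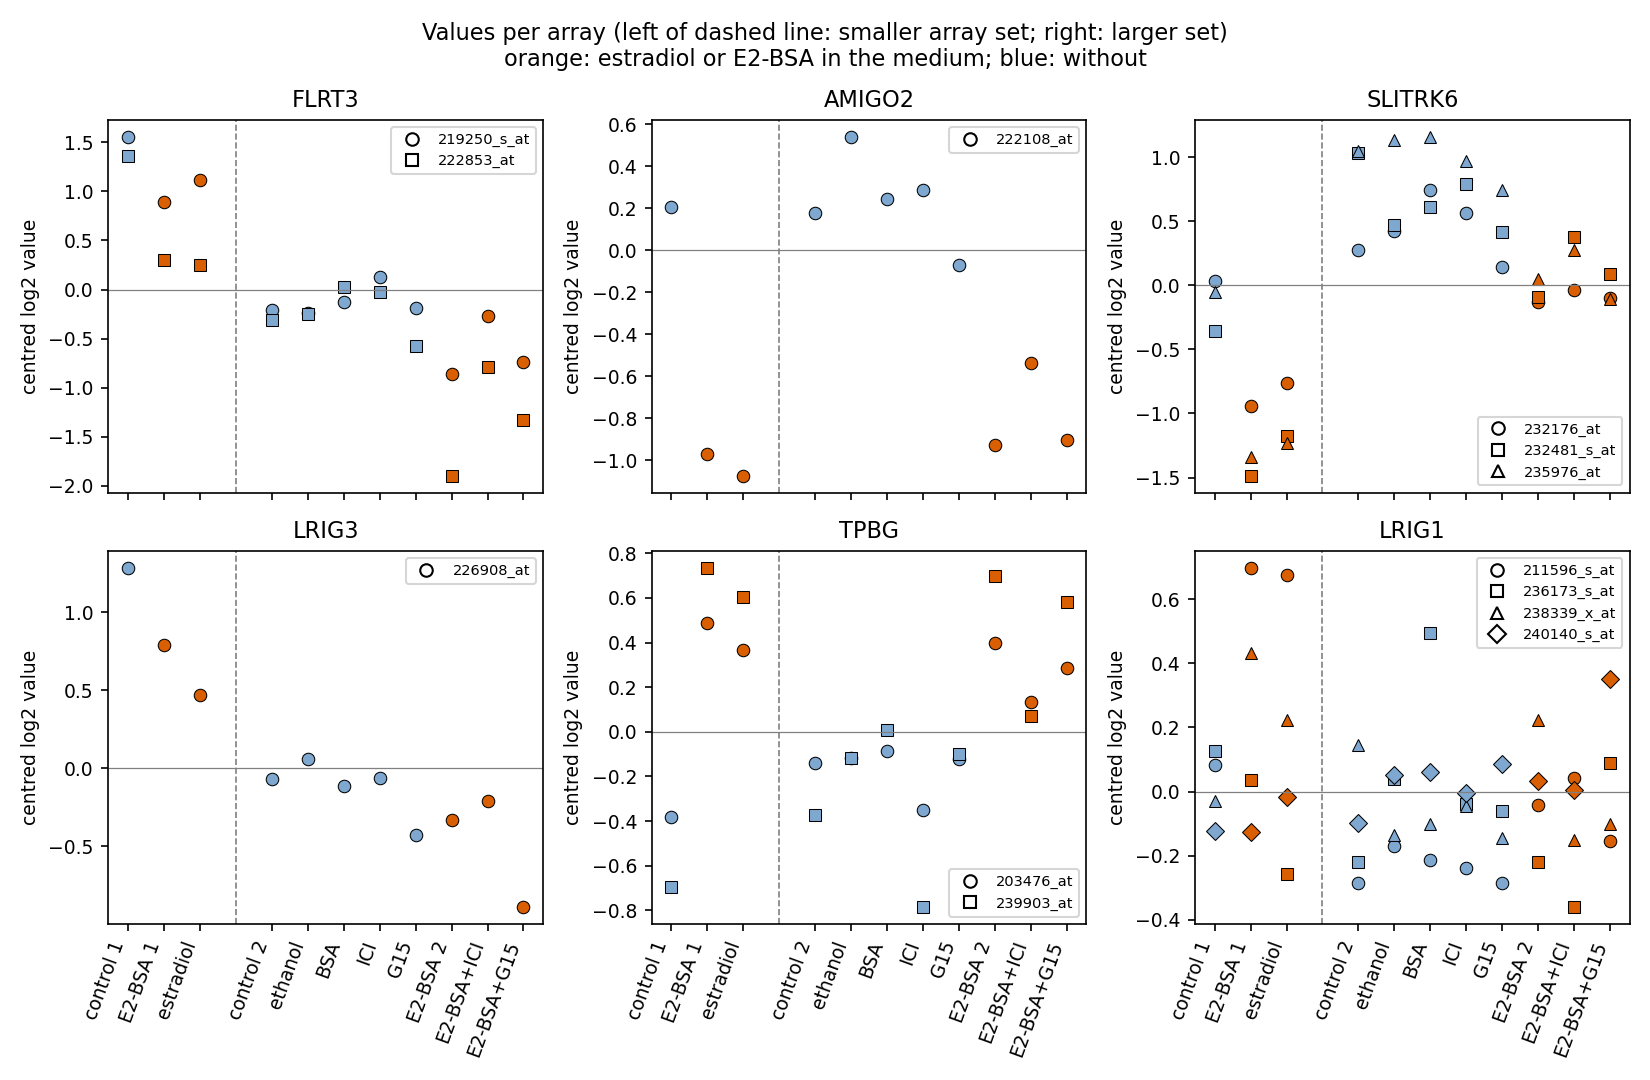
Deposited log2 values (centred per probe set) of 6 genes on each of the 11 arrays, 1 panel a gene and 1 symbol a probe set, with the smaller and larger array sets apart; orange points are arrays with E2-BSA or estradiol and blue points arrays without. Each probe set of FLRT3, AMIGO2 and SLITRK6 lies lower, and each of TPBG higher, on every hormone array than on every array without hormone of the same set, while LRIG3 overlaps in the larger set.

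FLRT3 gave the lowest difference of all 54613 probe sets between E2-BSA and control. Its probe set 222853_at read 1.36 in control 1, 0.30 in E2-BSA 1 and 0.25 with estradiol. In the larger set it read -0.31 in control 2, -0.25 with ethanol, 0.03 with BSA, -0.03 with ICI and -0.58 with G15, against -1.90 in E2-BSA 2, -0.79 with E2-BSA and ICI, and -1.33 with E2-BSA and G15. Within each set every hormone array lay below every array without hormone. The set itself mattered as much as the hormone, since control 1 stood 1.67 above control 2, so that the hormone arrays of the smaller set lay above all arrays without hormone in the larger one.

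The E2-BSA minus control difference of FLRT3 was -1.32 ± 0.14 (moderated SE, n = 2 arrays a group), a 2.50-fold lower value if the scale is log2. The SE values here and below come from the limma fit and draw on all probe sets, so they are not the spread of 1 gene's replicates. The FLRT3 difference was -1.05 in the smaller set and -1.59 in the larger. The gene's other probe set, 219250_s_at, also shifted between sets and gave -0.66 ± 0.12. Its separation in the larger set was narrow: E2-BSA with ICI read -0.27 and ethanol, the lowest array without hormone, -0.24.

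AMIGO2, an adhesion protein of the family first found in neurons, hardly differed between array sets, with control 1 only 0.03 above control 2. Its single probe set 222108_at read 0.21 in control 1, -0.97 in E2-BSA 1 and -1.07 with estradiol. The larger set read 0.18 in control 2, 0.54 with ethanol, 0.24 with BSA, 0.29 with ICI and -0.07 with G15, and -0.93 in E2-BSA 2, -0.54 with E2-BSA and ICI, and -0.90 with E2-BSA and G15. All 5 hormone arrays thus lay below all 6 others, across both sets. The difference of E2-BSA from control was -1.14 ± 0.12, 2.20-fold lower and the 7th lowest of all probe sets, at -1.17 and -1.10 in the 2 sets.

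SLITRK6 had 3 probe sets, all lower with hormone. The leading one, 235976_at, read -0.05 in control 1, -1.34 in E2-BSA 1 and -1.23 with estradiol. In the larger set it read 1.05 in control 2, 1.14 with ethanol, 1.16 with BSA, 0.97 with ICI and 0.75 with G15, against 0.05 in E2-BSA 2, 0.28 with E2-BSA and ICI, and -0.10 with E2-BSA and G15. The hormone arrays were the lowest in each set, but the set shift ran opposite to that of FLRT3: control 1 lay 1.10 below control 2.

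E2-BSA minus control was -1.14 ± 0.13 for this probe set, 2.21-fold lower and the 6th lowest of all. It was -1.13 ± 0.12 for 232481_s_at, the 8th lowest, and -0.69 ± 0.14 for 232176_at. The third probe set gave -0.98 in the smaller set and -0.41 in the larger, so the probe sets of SLITRK6 differ in size and not in direction. On 232481_s_at control 2 read 1.03, above the other arrays without hormone of the larger set, at 0.42 to 0.79. E2-BSA with ICI read 0.37 there, just below G15 at 0.42. E2-BSA minus BSA was -0.71 on this probe set and was not called.

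TPBG had the largest positive difference with hormone among the 17 member probe sets. Its probe set 239903_at read -0.69 in control 1, 0.74 in E2-BSA 1 and 0.60 with estradiol. The larger set read -0.37 in control 2, -0.12 with ethanol, 0.01 with BSA, -0.78 with ICI and -0.10 with G15, and 0.70 in E2-BSA 2, 0.07 with E2-BSA and ICI, and 0.58 with E2-BSA and G15. The groups did not overlap in either set, but E2-BSA with ICI lay only just above BSA. E2-BSA minus control was 1.25 ± 0.13, 2.38-fold higher and the 28th highest of all probe sets, and 203476_at gave 0.70 ± 0.13.

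Of the 17 member probe sets, 2 were called higher (both of TPBG) and 5 lower (both of FLRT3, AMIGO2, and 2 of SLITRK6) for E2-BSA minus control at an adjusted p under 0.05. Among all probe sets 0.657% were called, 0.381% higher and 0.276% lower, and nothing is read from the members' share, since this contrast helped to choose them. The median over the 17 was -0.15 and over all tested 0.00. The members just inside the threshold were FLRT3 219250_s_at and TPBG 203476_at, at -0.66 and 0.70, and the one just outside was SLITRK6 232176_at, at -0.69. Without the array set as a block, or after quantile normalization, limma called 0 of the 17 and none of all probe sets. The members at an unadjusted p under 0.05 numbered 3 and 10, and all probe sets at that level 339 and 3942. Nothing is read from these counts either.

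The other genes of the same families differed less. LRIG3, the relative of LRIG1 with a less settled role in receptor control, read 1.28 in control 1, 0.79 in E2-BSA 1 and 0.47 with estradiol on 226908_at. In the larger set it read -0.07 in control 2, 0.06 with ethanol, -0.11 with BSA, -0.06 with ICI and -0.43 with G15, and -0.33 in E2-BSA 2, -0.21 with E2-BSA and ICI, and -0.89 with E2-BSA and G15. Here the groups overlap, because the G15 array lay below 2 of the 3 hormone arrays. The E2-BSA difference was -0.38 ± 0.12, and like FLRT3 the gene stood far higher in the smaller set, by 1.35 between controls.

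LRIG1 gave 4 probe sets that did not move together. On 211596_s_at it read 0.08 in control 1, 0.70 in E2-BSA 1 and 0.67 with estradiol. The larger set ran from -0.28 to -0.17 without hormone and from -0.15 to 0.04 with it, so the groups were apart but by little. E2-BSA minus control was 0.43 ± 0.13 on this probe set, and -0.04, 0.27 and 0.06 on 236173_s_at, 238339_x_at and 240140_s_at. Which transcripts of LRIG1 each probe set reads was not used here.

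FLRT2 and AMIGO1, relatives of FLRT3 and AMIGO2, gave smaller values. The 3 FLRT2 probe sets gave -0.22, 0.21 and -0.15 for E2-BSA minus control, and AMIGO1 gave 0.08. Over all 11 arrays FLRT2 values lay between -0.30 and 0.29 and AMIGO1 values between -0.20 and 0.28. Differences within these families were not tested against each other.

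**Figure D2:**
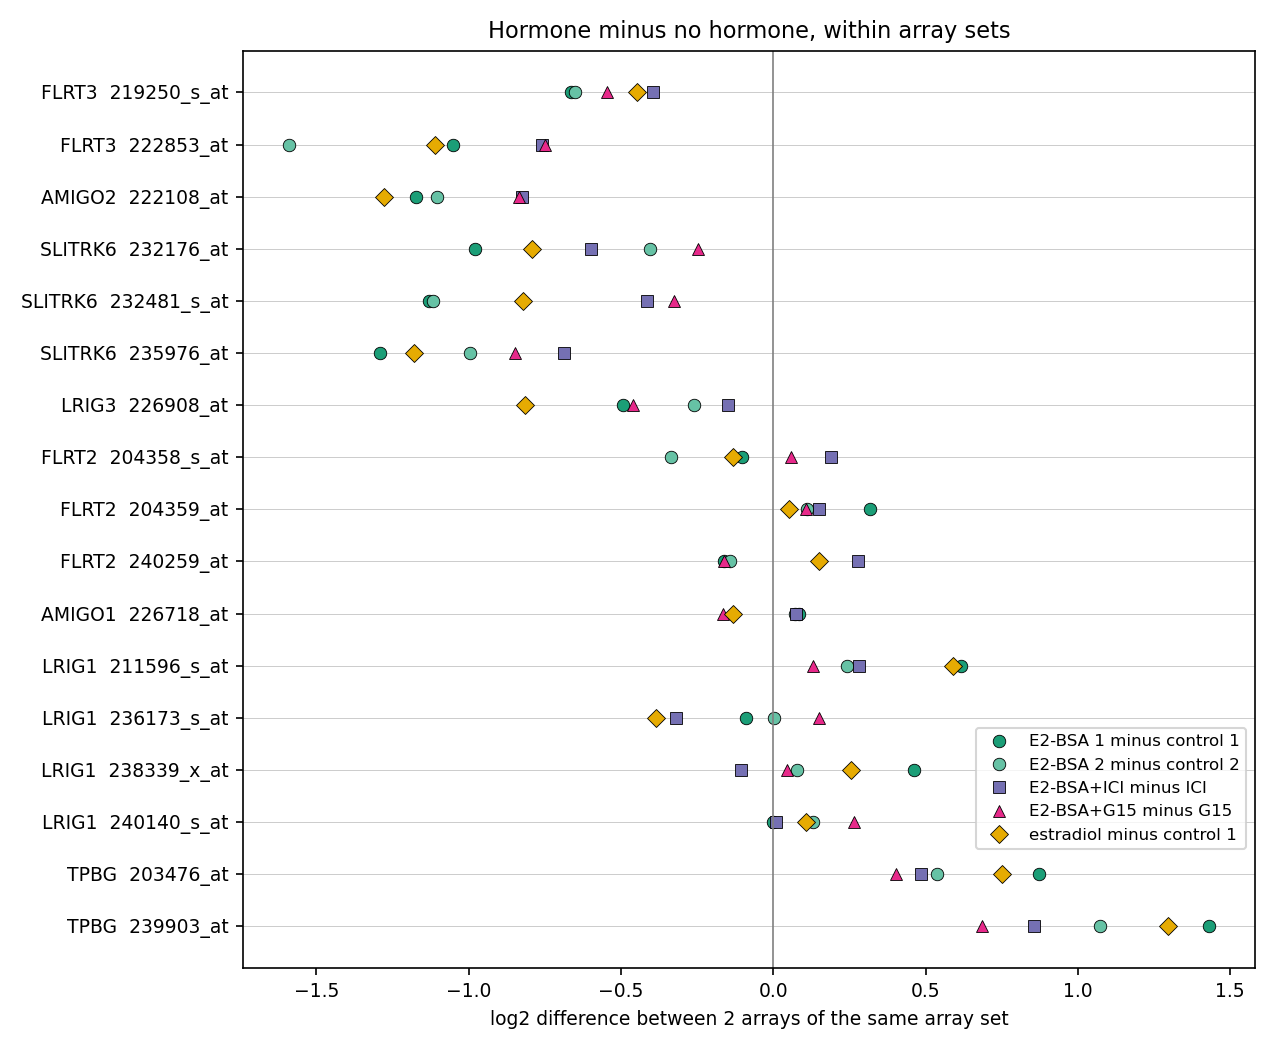
Log2 differences for the 17 member probe sets in 5 pairs of arrays that each lie within 1 array set: E2-BSA minus control in either set, estradiol minus control 1, and E2-BSA with ICI or G15 minus that antagonist alone. Points of FLRT3, AMIGO2, SLITRK6 and LRIG3 all lie below 0 and those of TPBG above it, with AMIGO1 and most FLRT2 and LRIG1 probe sets on both sides.

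In 5 pairs of arrays, each within a set and differing by the hormone, 11 of the 17 probe sets had the same sign throughout. They were lower in all 5 for both FLRT3 probe sets, AMIGO2, the 3 of SLITRK6 and LRIG3, and higher for both of TPBG, LRIG1 211596_s_at and FLRT2 204359_at. Among all probe sets 12.6% had 1 sign in all 5 pairs, and the E2-BSA 1 and estradiol pairs share control 1. Comparing all hormone arrays of the larger set with those lacking hormone, 4 probe sets were higher without overlap (3.16% of all tested) and 6 lower (3.63%). In the smaller set, with 1 array lacking hormone, 5 were higher (36.6%) and 9 lower (33.9%). These counts use the arrays that helped to choose the genes and are a description.

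Estradiol and E2-BSA, set at the same 1 µM dose and 3 h, gave differences from control of similar size in the leading genes. Estradiol minus control was -1.26 for AMIGO2, -1.24 for FLRT3 222853_at, -1.10 for SLITRK6 235976_at and 1.21 for TPBG 239903_at. These 4 were the member probe sets called there, 1 higher and 3 lower, where 0.167% of all were called, 0.15% higher and 0.0165% lower. Nothing is read from that count, since the contrast helped to choose the genes. LRIG3 read -0.76 in this comparison and -0.38 for E2-BSA minus control, with control arrays shared between both.

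Estradiol minus E2-BSA, the direct comparison, was not itself among those used to choose the genes. Both its sides were, since genes entered as low or high on arrays with either hormone. Its member values, intervals and p-values are therefore not free of that choice. The free and coupled hormone differ by the albumin attached to the steroid. No probe set of the 54613 was called (0%) by limma with Benjamini-Hochberg adjustment, and 1 of the 17 had an unadjusted p under 0.05, as did 8.5% of all probe sets. That was LRIG3, at -0.38 ± 0.16 (95% interval -0.73 to -0.03, adjusted p = 0.555). The difference was 0.08 for FLRT3 222853_at (-0.33 to 0.48), -0.12 for AMIGO2 (-0.47 to 0.22), 0.04 for SLITRK6 235976_at (-0.32 to 0.40) and -0.04 for TPBG 239903_at (-0.41 to 0.33). These intervals leave room for differences of about 0.4 log2 in either direction, so the compounds are not shown to act alike on these genes. All 17 fitted differences lay between -0.38 and 0.31.

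Against BSA, the carrier protein alone, E2-BSA gave -1.79 for FLRT3 222853_at, -1.19 for AMIGO2 and -1.18 for SLITRK6 235976_at. These 3 were called lower and 0 members higher, where 0.152% of all probe sets were called, 0.0311% lower and 0.121% higher. TPBG 239903_at gave 0.78 and was not called, and on the single BSA array it read 0.38 above control 2. This contrast, too, helped to choose the genes.

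The agents without hormone did not take any member past the threshold, by limma with Benjamini-Hochberg adjustment. The control, BSA, ICI and G15 arrays also entered comparisons that helped to choose the genes. Member values and p-values for ethanol, BSA, ICI or G15 minus control are therefore not free of that choice. ICI minus control called none of the 54613 probe sets (0%), with 1 of 17 members and 5.95% of all at an unadjusted p under 0.05. Its member values ran from -0.32 for TPBG 239903_at (adjusted p = 0.898) to 0.42 for FLRT3 222853_at (adjusted p = 0.825). G15 minus control also called none (0%), with 3 of 17 and 4.84% of all at an unadjusted p under 0.05. Its lowest member value was -0.62 for SLITRK6 232481_s_at (adjusted p = 0.619), and LRIG3 read -0.41 (adjusted p = 0.973).

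Ethanol and BSA called probe sets elsewhere but none among the members. Ethanol minus control called 0.287% of all and 0 of 17, with 2 members and 7.16% of all at an unadjusted p under 0.05. SLITRK6 232481_s_at had the lowest value, -0.56 (adjusted p = 0.295), while its 235976_at read 0.02, so the probe sets of this gene part here. BSA minus control called 0.0494% of all and 0 of 17, with 4 members and 4.95% of all at an unadjusted p under 0.05. Its largest values were 0.69 for LRIG1 236173_s_at (adjusted p = 0.280) and 0.47 for both FLRT3 222853_at (0.904) and TPBG 239903_at (0.819). The 4 comparisons share the control arrays.

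**Figure D3:**
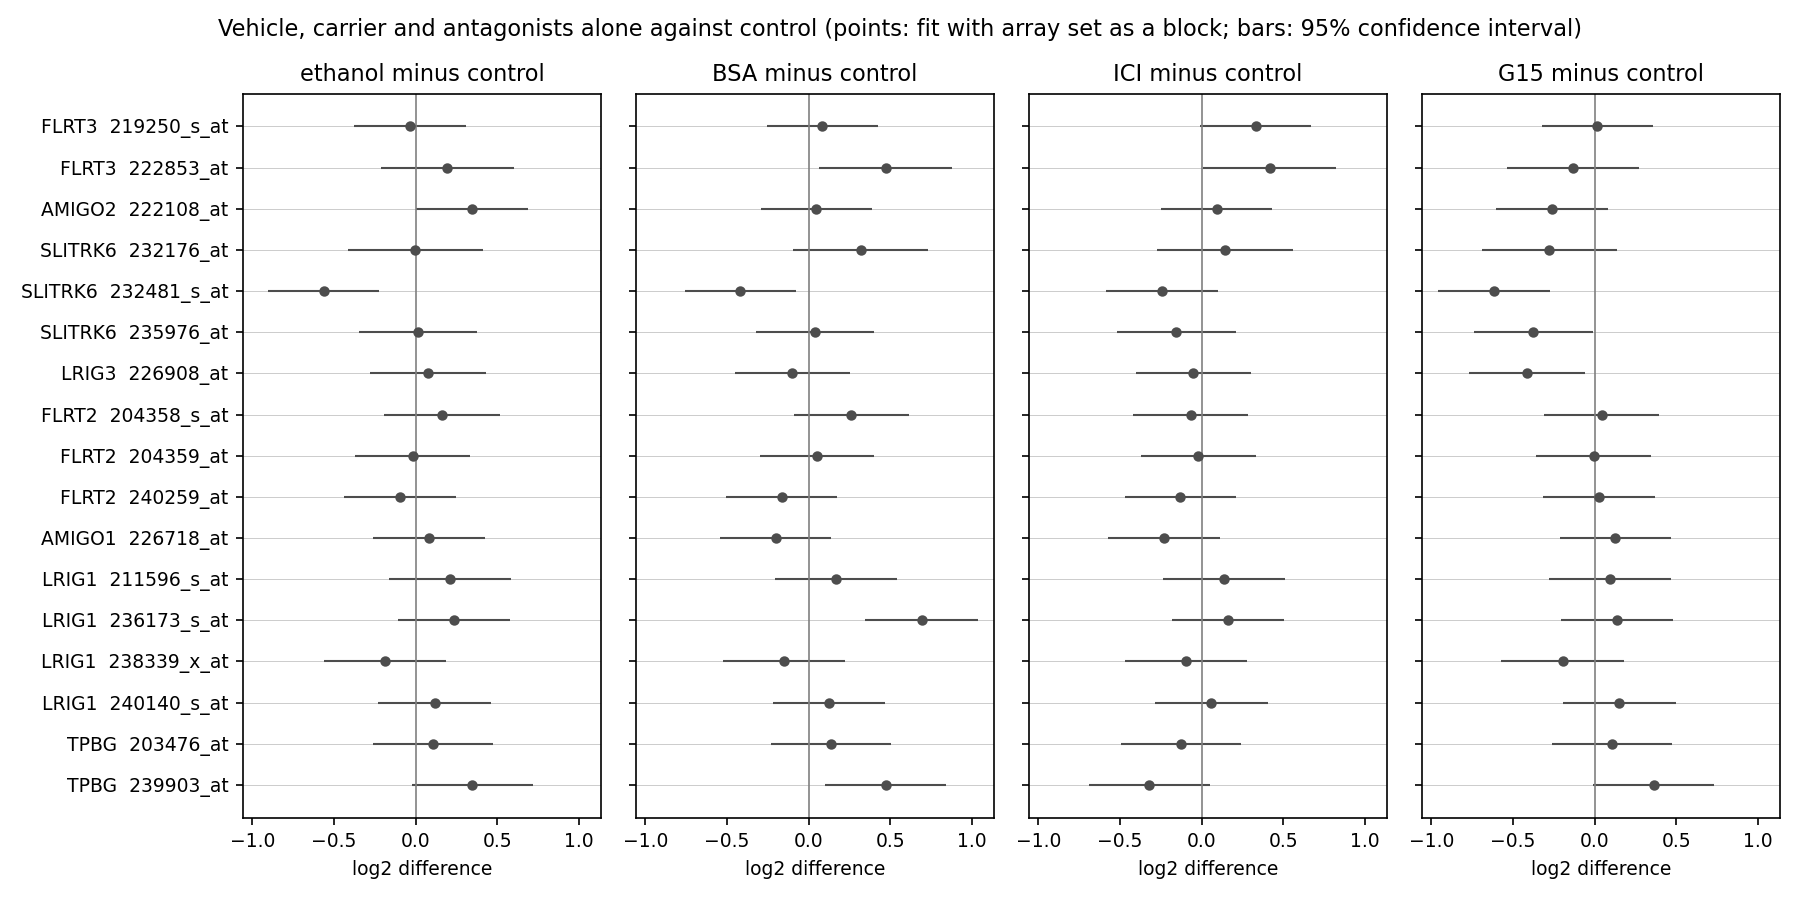
Fitted log2 differences from control for the member probe sets with ethanol, BSA, ICI or G15 alone, 1 panel an agent; bars are 95% confidence intervals of the limma fit. The points lie between -0.62 for SLITRK6 232481_s_at with G15 and 0.69 for LRIG1 236173_s_at with BSA.

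With an antagonist present, the E2-BSA difference had the same sign in the 4 leading genes as without. Of the 359 probe sets called for E2-BSA minus control, 69.6% also kept their sign with ICI and 79.9% with G15. The arrays with an antagonist entered the mean that helped to choose the genes, so the values are a description. E2-BSA with ICI minus ICI was -0.82 for AMIGO2, -0.76 for FLRT3 222853_at, -0.69 for SLITRK6 235976_at and 0.86 for TPBG 239903_at. E2-BSA with G15 minus G15 was -0.83 for AMIGO2, -0.75 for FLRT3 222853_at, -0.85 for SLITRK6 235976_at and 0.68 for TPBG 239903_at. Single arrays stand on each side, and limma called 0 members in either comparison, where 0% and 0.112% of all probe sets were called. At an unadjusted p under 0.05 the members numbered 8 with ICI and 7 with G15, and the shares of all probe sets were 7.14% and 7.43%. Nothing is read from these counts.

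The size of these differences relative to those without antagonist was 57.6% with ICI and 56.8% with G15 for FLRT3 222853_at, and 72.4% and 73.3% for AMIGO2. For TPBG 239903_at it was 68.4% and 54.6%. The SLITRK6 probe sets disagree: 60.1% and 74.3% on 235976_at, 36.9% and 29.1% on 232481_s_at, and 86.5% and 35.6% on 232176_at. The low shares on 232481_s_at rest in part on control 2, the highest array of the larger set on that probe set. Against the E2-BSA pair of the larger set alone, at -0.41, 232176_at was larger with ICI, at -0.60. FLRT3 222853_at gave -0.76 with ICI against -1.59 in that pair, and TPBG 239903_at 0.86 against 1.07. For the 359 probe sets called for E2-BSA minus control the medians were 36.8% with ICI and 60.9% with G15. In 96.7% of them the difference was smaller or reversed with ICI, and in 84.1% with G15. Both the members and the 359 were chosen on the difference without antagonist, and the part of that choice in these shares was not tested.

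The change in the E2-BSA difference with an antagonist was fitted as an interaction in limma. It contains the E2-BSA minus control difference that chose the genes, so its member values carry no p. No member was called for ICI (0.011% of all probe sets called) or for G15 (0%), with 2 and 3 of 17 members, and 7.58% and 8.01% of all, at an unadjusted p under 0.05. FLRT3 222853_at gave 0.56 ± 0.24 with ICI and 0.57 ± 0.24 with G15, and SLITRK6 232481_s_at gave 0.71 and 0.80. The SLITRK6 values rest in part on control 2, which stood high on that probe set. Setting the combinations against E2-BSA itself also called 0 members and no probe set at all (0% for each). There 6 members for ICI and 4 for G15, and 6.95% and 7.53% of all, had an unadjusted p under 0.05. Nothing is read from these counts, since the comparison holds the E2-BSA arrays on which the genes were chosen. In this comparison FLRT3 222853_at read 0.98 and TPBG 239903_at -0.72 with ICI. For these, ICI alone minus control gave 0.42 and -0.32.

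**Figure D4:**
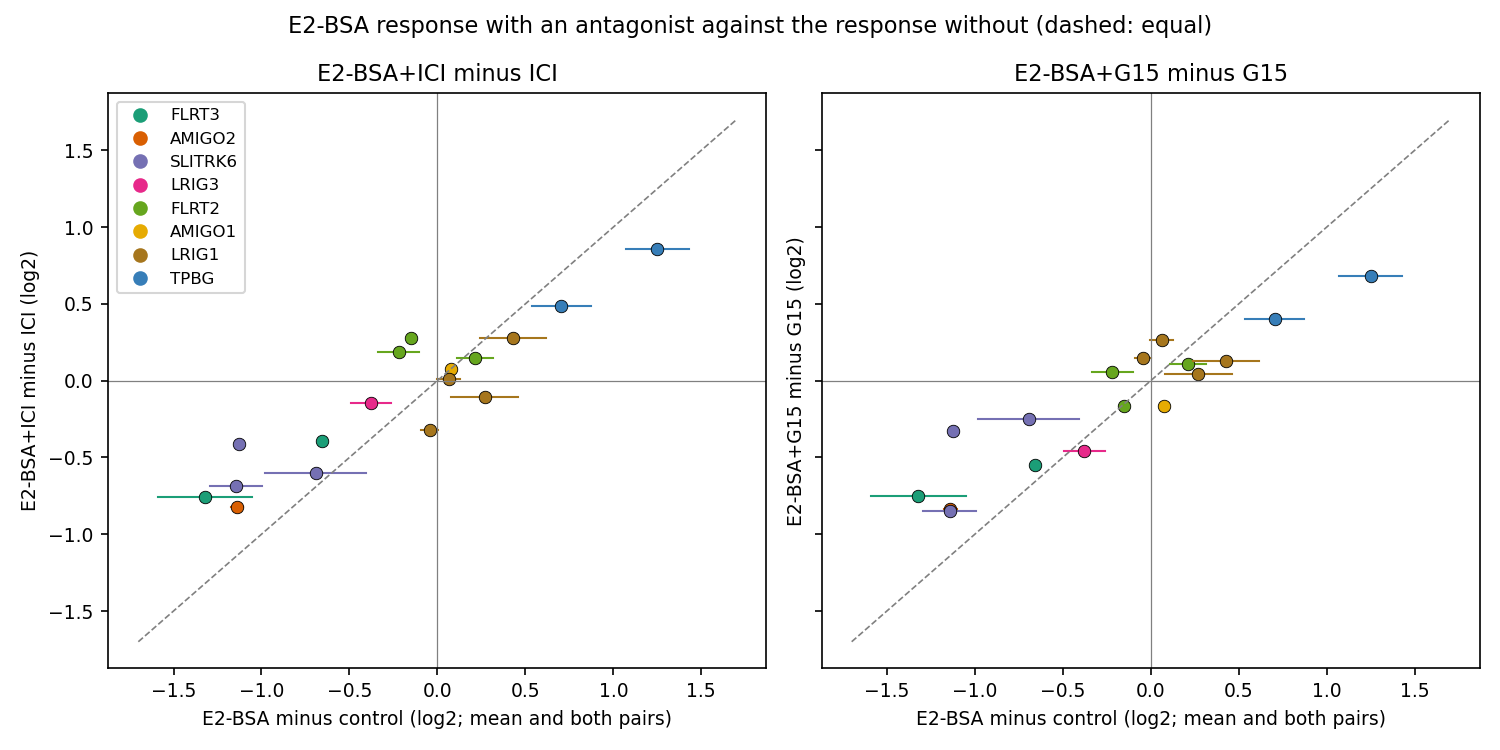
E2-BSA difference in the presence of ICI (left) or G15 (right) on the vertical axis against the E2-BSA difference without antagonist on the horizontal axis, in log2, for the 17 member probe sets; horizontal bars join the 2 pairs without antagonist and the dashed line marks equal values. FLRT3 222853_at, AMIGO2, SLITRK6 235976_at and TPBG 239903_at all lie nearer 0 than the line.

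Averaged over the 3 backgrounds (no antagonist, ICI, G15) on 8 arrays, the difference was -1.04 ± 0.14 for FLRT3 222853_at, -0.98 for AMIGO2, -0.96 for SLITRK6 235976_at and 1.01 ± 0.12 for TPBG 239903_at. These and FLRT3 219250_s_at (-0.56) were the 5 members called, 1 higher and 4 lower, where 0.244% of all probe sets were called, 0.189% higher and 0.0549% lower. Their values are again a description, and leaving out single arrays gave 0 to 2 members called: 2 without ICI or E2-BSA with ICI, and 0 without any of the other 6.

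A list of 47 other leucine-rich repeat surface genes, drawn from the same and neighbouring families, matched 43 genes and 82 probe sets. For E2-BSA minus control 1 probe set was called higher and 0 lower, with a list median of 0.02. That is 1.22% of the list, against 0.657% of all probe sets, so 1 call is near the background and says nothing of the list. The called gene was SLITRK4, a relative of SLITRK6, which rose by 0.74 on 230680_at (limma, Benjamini-Hochberg adjusted p = 0.0147), against the direction of SLITRK6. It read 0.76 and 0.72 in the 2 array sets. Its second probe set, 232636_at, gave 0.59 (adjusted p = 0.0504). Estradiol minus control was 0.98 for SLITRK4 230680_at (adjusted p = 0.0307). In the presence of an antagonist it gave 0.31 with ICI (adjusted p = 0.787) and 0.94 with G15 (adjusted p = 0.0706). SLITRK5 gave values down to -0.50 and was not called.

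A list of 23 known binding partners and signalling receptors of these proteins matched 21 genes and 80 probe sets, with a median of 0.00. For E2-BSA minus control RET, a receptor tyrosine kinase, rose by 1.48 on 211421_s_at (limma, adjusted p = 0.000150), and ERBB4, a kinase of the family that LRIG1 restrains, fell by 0.67 on 233498_at (adjusted p = 0.0259). These were the 2 called, 2.5% of the list against 0.657% of all probe sets. RET gave 0.35 or less on 2 further probe sets within either array set, so its probe sets disagree. On 211421_s_at the agents without hormone also read above control 2, by 0.46 with ethanol, 0.51 with BSA, 0.54 with ICI and 0.63 with G15. E2-BSA 2 minus BSA was 0.94 on this RET probe set, and the E2-BSA difference was 0.52 with ICI and 0.70 with G15 present. The other 3 ERBB4 probe sets gave 0.28, -0.28 and 0.10. ERBB4 233498_at read -0.70 and -0.63 in the 2 array sets, but 0.67 with ICI and 0.04 with G15 present. On this probe set estradiol minus control 1 was 0.11, and control 1 minus control 2 was -2.53. The Unc5 receptor UNC5B rose by 1.33 on 226899_at with ethanol (limma, adjusted p = 0.00375), the single call on this list there (1.25% of the list, against 0.287% of all). Its other probe sets gave 0.49 on 213100_at and -0.03 on 41856_at. These list calls were all lost in limma without the array set as a block, where no probe set was called for E2-BSA, estradiol or ethanol minus control (339, 412 and 417 at an unadjusted p under 0.05).

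By the correlation over the 11 arrays with array set means removed, the gene most like FLRT3 was BLNK (r = 0.995), that most like AMIGO2 was BAMBI (r = 0.984), and that most like TPBG was GEMIN4 (r = 0.985). For SLITRK6 the most alike of all named genes was AMIGO2 (r = 0.981), a member of the set. TPBG 239903_at ran opposite to AMIGO2 (r = -0.87). These are descriptions over arrays that share the hormone contrast on which the members were chosen, and they carry no test.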

How the data were processed

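Total RNA of 11 T47D samples was measured on Affymetrix HG-U133 Plus 2 arrays, per the labels' protocols. The deposited values, taken as log2 because of their range, were normalized and centred per probe set by the authors; log base, summarisation and scaling are not given in the sources used here, and higher is read as more transcript. The largest array median was 0.0106 from 0. The 62 control probe sets were left out, leaving 54613, of which 41091 carry 1 gene symbol of the platform annotation.

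Group means and the array set were fitted with limma 3.58.1 in R 4.3.3 over all 11 arrays (1 residual degree of freedom, 11.3 prior) and moderated with eBayes. The average over backgrounds used 8 arrays (3 residual degrees). Calls are at a Benjamini-Hochberg adjusted p under 0.05 over all 54613 probe sets. Intervals are 95%. Array sets were read from the first principal component. The members, the lists, the block and the rule for genes named (every member; called list genes; nearest by correlation) were chosen with earlier results of these data known. The fit was tested on simulated data with changes larger than any member difference, so that test says nothing of calls at the members' sizes. Alternatives were no block, quantile normalization, robust eBayes, each array left out, and 1 probe set per gene. The labels number only the control and E2-BSA arrays. Some listed genes are not reported here.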

Additional observations from a re-analysis of the deposited data

Results flagged for a closer look

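The following small differences were picked out because the E2-BSA difference with an antagonist had the opposite sign to both E2-BSA minus control pairs. FLRT2 204358_s_at gave 0.19 with ICI and 0.058 with G15, against -0.10 and -0.34 without antagonist. FLRT2 240259_at gave 0.28 with ICI, against -0.16 and -0.14. LRIG1 238339_x_at gave -0.11 with ICI, against 0.46 and 0.08, and AMIGO1 226718_at gave -0.17 with G15, against 0.08 and 0.07. Each rests on single arrays, and these opposite signs were not tested by themselves.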

How the results depend on the processing

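Without the replicate block, that is without the array set term, 0 member probe sets were called in E2-BSA minus control, E2-BSA minus BSA, estradiol minus control and the average over backgrounds, where the fit with the block called 7, 3, 4 and 5. limma without the block gave 3, 3, 3 and 5 members an unadjusted p under 0.05. Of all 54613 probe sets, 339, 306, 412 and 1203 had one. Quantile normalization also left 0 members called in these 4 comparisons. There 10, 12, 7 and 11 members, and 3942, 7494, 822 and 4430 of all, had an unadjusted p under 0.05 in limma. Nothing is read from these counts, since the 4 comparisons helped to choose the genes. Every member call of these comparisons was thus lost under both settings, while the called members kept their sign. Among members not called, FLRT3 219250_s_at turned without the block from -0.44 to 0.44 (estradiol minus control) and from -0.74 to 0.14 (E2-BSA minus BSA), and LRIG3 from -0.28 to 0.34 (E2-BSA minus BSA). FLRT2 240259_at and 204359_at, and AMIGO1 after quantile normalization, turned near 0. Called values that moved by over 1.5 times without the block were FLRT3 222853_at, from -1.24 to -0.28 for estradiol minus control and from -1.79 to -0.82 for E2-BSA minus BSA, and SLITRK6 235976_at, from -1.10 to -1.73 and from -1.18 to -1.81. Quantile normalization moved SLITRK6 235976_at to -1.98 for E2-BSA minus BSA and from -0.96 to -1.61 for the average. Estradiol lies only in the smaller set and BSA only in the larger, while control and E2-BSA lie in both. These differences without the block therefore include part of the shift between sets. The cause of the moves after quantile normalization was not tested. Robust eBayes gave the same 7, 3, 4 and 5. Leaving out each array in turn gave 0 to 2 members called in the average over backgrounds. There were 2 without ICI or without E2-BSA with ICI, where 95 of all probe sets were called. There were 0 without control 1 or 2, E2-BSA 1 or 2, or either array holding G15, where 0 to 2 of all were called. In E2-BSA minus control, leaving out an array of either group leaves no residual degree of freedom, so no call could be tested. With 1 probe set per gene, 4 members were called in place of 7. Signal over background cannot be given for centred values.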
